A study of Mus musculus with 12 samples.

Results

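The RAS, RAF, MEK and ERK genes form the cascade that trametinib blocks, and 7 of them were followed across the treatments of a mouse angiosarcoma model. The 7 genes are Hras, Nras, Araf, Braf, Map2k1, Map2k2 and Mapk3, taken by name from the table of 54232 genes, of which 12897 passed a filter on low counts. All 7 passed it. SVR is a mouse endothelial line transformed with activated H-ras, and its cells were grown as subcutaneous xenografts in nude mice. The mice received daily gavage of vehicle (control), trametinib at 1 mg/kg, cediranib at 3 mg/kg, or both drugs (combination), with 3 tumors per group. Trametinib inhibits the MEK kinases and cediranib the VEGF receptors. The labels give SVR as the cell line and C57BL/6 as the strain for every tumor, and the mice were young adults.

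In this cascade, a RAS protein bound to GTP recruits a RAF kinase, RAF phosphorylates MEK, and MEK phosphorylates ERK. ERK then changes transcription, including that of phosphatases and adaptors that restrain the cascade. The core proteins are switched mainly by GTP loading and phosphorylation, so the amount of a transcript is not a measure of the activity of its protein. In angiosarcoma, a tumor of endothelial cells, alterations of RAS and RAF genes are known.

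Several properties of the model bear on every value. Counts per gene do not separate the H-ras introduced into SVR cells from the gene of the mouse. Tumor, stroma and skin are all of mouse origin, and in whole tumors fewer cells of a type and less RNA per cell cannot be told apart. RNA was captured with exome probes, so the level of a gene depends on its probes as well. The study ran more than 1 treatment experiment, with different end points, and the sources used here do not say which of them gave these tumors. The groups may therefore differ in how long they were treated. The labels do not say whether tumors of a group came from separate mice, and p-values measure only the spread between these tumors. The libraries held 9478865 to 11666094 counts, and a count of 3 corresponded to 0.257 to 0.316 CPM, the count scaled to library size with TMM factors.

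Marker genes of the cell types in a tumor differed between treatments. The summed level of 12 endothelial markers was 253 to 507 CPM in controls and between 158 and 393 CPM after cediranib. The same sum was 113 to 172 CPM in trametinib and 80.7 to 142 CPM in combination treated tumors. It includes Emcn and Egfl7, which did not pass the filter. The 14 epidermis markers, of which Dsg3 did not pass the filter, summed to 4.02 to 10.3 CPM after trametinib and to 3004 to 4478 CPM after the combination. They ran from 22.9 to 630 CPM in controls and from 45.0 to 2889 CPM after cediranib, where replicate 2 was the low one. Between 6 and 8 of these epidermis markers were at 0 in each trametinib treated tumor. Fibroblast markers summed to 8093 to 36888 CPM after trametinib, against 2046 to 21025 CPM in controls. After the combination they summed to 2641 to 5329 CPM. Most of this sum was Col1a1, with means of 7792, 16683 and 3191 CPM in control, trametinib and combination treated tumors. Of the 7 fibroblast markers, 6 were higher and 1 lower in trametinib treated than in control tumors. Against control the combination had 3 higher, Col3a1, Dcn and Pdgfra, and 4 lower. Skeletal muscle markers reached 16583 CPM in control replicate 2 and 22066 CPM in trametinib replicate 2. Macrophage markers summed to 176 to 314 CPM after the combination and to 389 to 664 CPM in controls. The part of these differences in the levels of the 7 genes was not tested beyond a fit with an epidermal score. This score was the mean log2 CPM of the 13 tested epidermis markers, centred over the tumors.

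The members of a pair are close relatives, and their coding sequences show where the proteins are switched. The first 20 codons of Hras are given with codons 12 and 13 in capitals, the glycines at which activating changes of RAS are known. They lie at chr7:141192881-141192940 on the minus strand (GRCm38, GENCODE M21 transcript). This is the reference sequence, and not that of the activated copy in SVR cells.
Hras: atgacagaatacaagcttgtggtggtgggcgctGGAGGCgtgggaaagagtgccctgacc

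The activation segments of the MEK and ERK kinases follow, with capitals for the codons of the residues that are phosphorylated. In Map2k1 these are the serines of codons 218 and 222 and in Map2k2 those of codons 222 and 226, the sites at which RAF acts. In Mapk3 they are the threonine of codon 203 and the tyrosine of codon 205, the sites at which MEK acts. The segments lie at chr9:64193714-64193767 on the minus strand, chr10:81119316-81119369 on the plus strand and chr7:126763434-126763487 on the plus strand.
Map2k1: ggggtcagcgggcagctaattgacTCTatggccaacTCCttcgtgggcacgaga
Map2k2: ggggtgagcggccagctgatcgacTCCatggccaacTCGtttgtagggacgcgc
Mapk3: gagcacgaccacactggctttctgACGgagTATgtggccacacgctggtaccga

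Over the whole coding sequence, Hras and Nras were identical at 76.1% of aligned bases and their encoded proteins at 85.7% of residues. Map2k1 and Map2k2 were identical at 78.4% of bases and 82.1% of residues, and Araf and Braf at 67.8% and 61.7%. At the read length of 50 bases the relatives were mostly distinguishable. None of the 3957 windows of that length in Hras transcripts occurred in another gene, and 7 windows were shared between Map2k1 and Map2k2. Shares were 0.733% for Nras, 1.13% for Araf and 0.691% for Braf, the last with Ndufb2, which overlaps Braf on the opposite strand. Araf also overlaps Syn1, and Map2k1 overlaps Uchl4, each on the opposite strand. Since the strand setting of the counting is not given, reads of these overlapping genes cannot be told apart.

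Per kilobase of exon model, Hras was the most abundant of the 7 transcripts, with a mean of 210 CPM per kb over the 12 tumors (range 144 to 325). Mapk3, which encodes the kinase ERK1, followed with 89.7 CPM per kb (68.8 to 103), and Map2k1, which encodes MEK1, with 68.6 (53.5 to 85.9). Nras had 40.9 CPM per kb (30.4 to 50.4) and Map2k2, which encodes MEK2, 14.5 (12.3 to 19.3). Of the 7, Araf and Braf were the lowest, with 8.05 CPM per kb for Araf (6.85 to 9.86) and 7.70 for Braf (5.18 to 10.2). In this order the ranges of Mapk3 and Map2k1 overlapped, as did those of Araf and Braf, and the other neighbours were apart. The order depends on the length used, since exon models hold more than coding sequence, as for Nras with 5331 and 567 bases. An order per coding length was not computed.

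**Figure D1:**
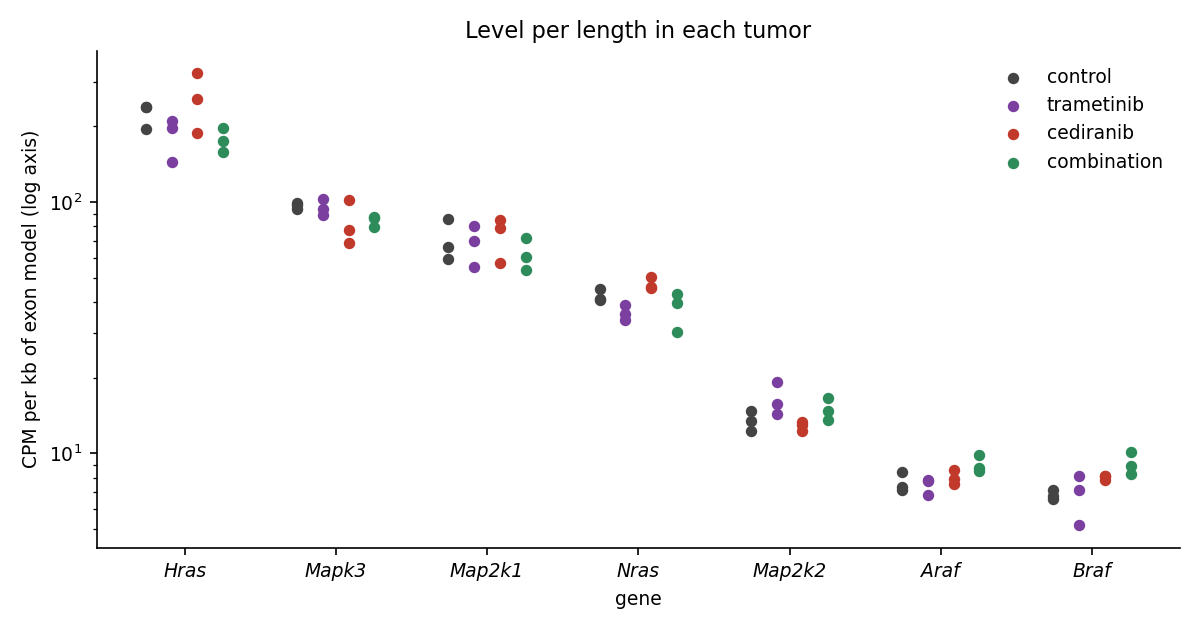
Level of each gene per kilobase of its exon model in CPM per kb (log axis), 1 point per tumor and 1 color per treatment, with genes in the order of their mean. Hras lies between 144 and 325 CPM per kb in all 12 tumors, above every other gene shown, and Araf and Braf lie between 5.18 and 10.2 CPM per kb.

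Within each tumor the balance of the RAS and of the MEK pair kept its direction. Hras exceeded Nras per kilobase 4.12 to 7.06 times and Map2k1 exceeded Map2k2 2.85 to 6.52 times in all 12 tumors. Per kilobase of exon model, Braf to Araf ran from 0.658 to 1.07 and crossed 1 within the trametinib, cediranib and combination groups. As plain counts the ratio was 1.40 to 2.27, above 1 in all 12 tumors, so the crossing depends on the length used. The exon models hold 13862 bases for Braf and 6541 for Araf, and the coding sequences 2412 and 1812. The lowest ratios of Map2k1 to Map2k2 and of Braf to Araf both came from trametinib replicate 3. These ratios within a library do not depend on scaling, and still depend on the capture of each gene.

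Hras stood at 889, 729 and 893 CPM in the control tumors. After trametinib it was at 787, 538 and 733 CPM, and after the combination at 738, 652 and 593 CPM. The cediranib treated tumors held 1213, 700 and 961 CPM, the widest spread of any group for this gene. Trametinib and combination treated tumors lay mostly below the others, with overlap in every comparison, because control replicate 2 and cediranib replicate 2 were as low as tumors given trametinib. Cediranib replicate 2 was also the tumor of that group with few epidermal transcripts.

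Nras encodes a second RAS protein that the same exchange factors load. Its values were 220, 240 and 217 CPM in control tumors and 192, 182 and 208 CPM after trametinib. They were 245, 242 and 269 CPM after cediranib and 229, 211 and 162 CPM after the combination. Cediranib treated tumors were the highest and did not overlap with any other group, and trametinib treated tumors were all below the controls.

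The RAF genes were highest in combination treated tumors. Araf was at 55.4, 46.7 and 48.2 CPM in controls, 50.9, 44.8 and 51.5 CPM after trametinib, and 56.3, 49.5 and 51.8 CPM after cediranib. The combination treated tumors held 55.4, 57.0 and 64.5 CPM of Araf, above all trametinib treated tumors and, by a small margin, above the controls. Braf was at 99.0, 94.0 and 91.6 CPM in controls and at 108, 112 and 113 CPM after cediranib, which did not overlap. After trametinib it ranged widely, with 112, 99.5 and 71.8 CPM, and after the combination it was at 123, 115 and 141 CPM, above every other tumor.

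Map2k1 and Map2k2 encode the kinases that trametinib binds. Map2k1 was at 226, 201 and 291 CPM in controls, 236, 272 and 186 CPM after trametinib, 268, 288 and 195 CPM after cediranib, and 204, 181 and 243 CPM after the combination. All 4 groups overlapped. Map2k2 was at 69.7, 76.1 and 83.3 CPM in controls and at 81.1, 89.0 and 109 CPM after trametinib, and 1 control lay above the lowest trametinib treated tumor. It was at 75.8, 73.8 and 69.7 CPM after cediranib and at 94.4, 83.5 and 76.8 CPM after the combination, and these groups did not overlap.

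Mapk3 was even across the controls, at 212, 223 and 219 CPM, and across the trametinib treated tumors, at 212, 200 and 232 CPM. After cediranib it was at 155, 231 and 174 CPM, with replicate 2 apart from the others, and after the combination at 195, 180 and 197 CPM. Combination treated tumors were below all control and all trametinib treated tumors.

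**Figure D2:**
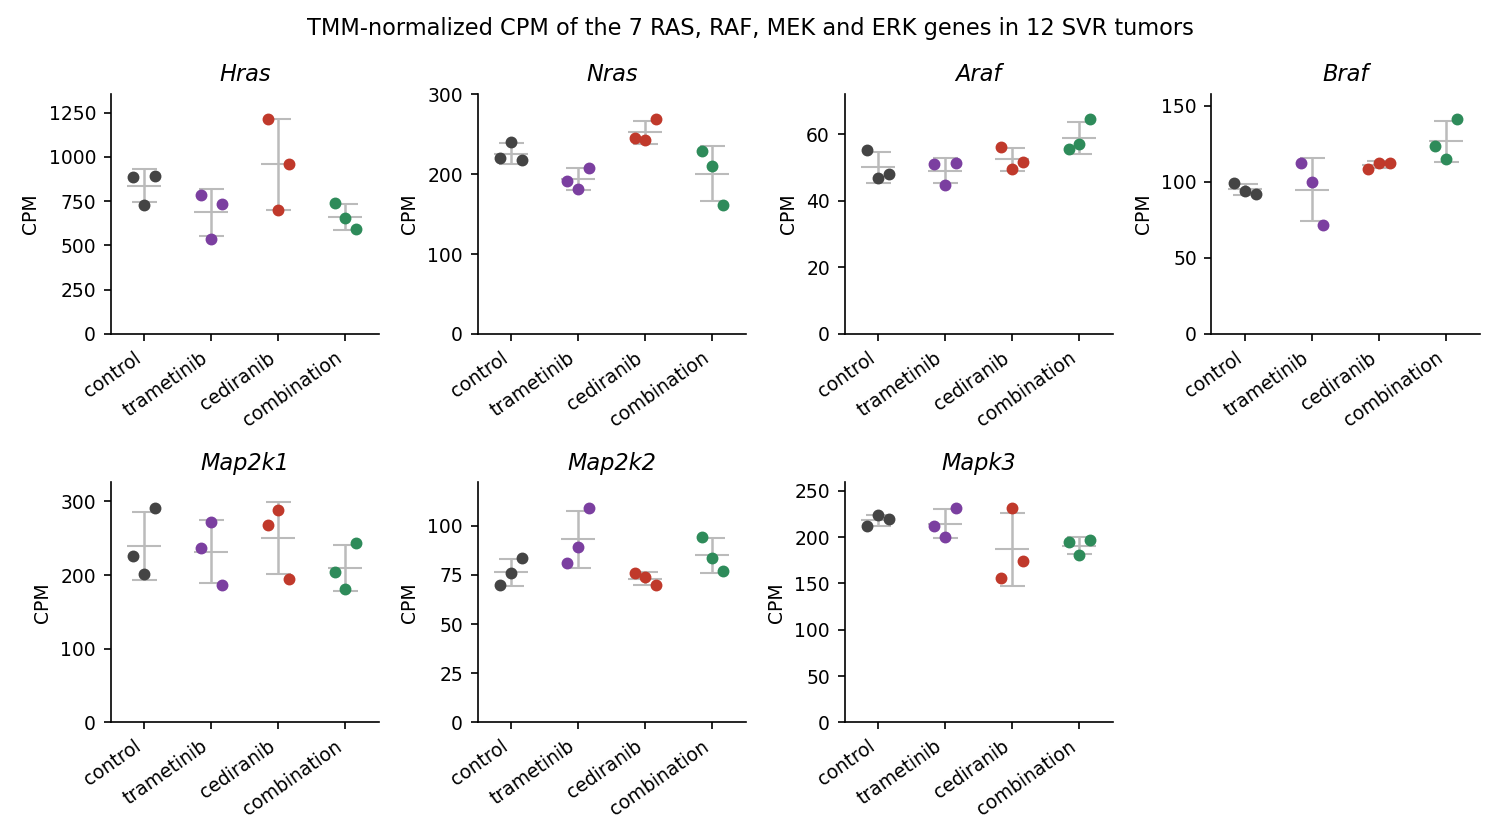
TMM-normalized CPM of each of the 7 genes (linear axes from 0) in 12 tumors, with 1 point per tumor and gray bars for the mean and SD of 3 tumors. Hras spans 538 to 1213 CPM with overlapping groups, Nras is highest after cediranib, and Braf is highest after the combination.

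The comparison of trametinib with control asks whether blocking MEK altered the transcripts of the cascade itself. None of the 7 genes passed an FDR of 0.05 (edgeR quasi-likelihood test with Benjamini-Hochberg adjustment over all genes tested), against 6.12% of all genes. The likelihood ratio test of edgeR and DESeq2 also passed 0, and 0 of the 7 had an unadjusted p under 0.05. Map2k2 had the smallest FDR, 0.243, and its log2 difference from control was 0.29 (standard error, SE, 0.13). Without trametinib replicate 3 this difference was 0.14. The log2 differences were -0.29 (SE 0.20) for Hras and -0.22 (SE 0.13) for Nras. That of Hras was -0.14 without trametinib replicate 2 and -0.07 with the epidermal score as a covariate. Nras was the 1 gene of the 7 whose groups did not overlap, while 25.8% of all genes had groups apart. Values for Araf, Braf, Map2k1 and Mapk3 lay between -0.05 and -0.01. The median size of the log2 fold change was 0.05 over the 7 genes and 0.27 over all genes tested, the widest gap of the comparisons. For cediranib against control the medians were 0.16 and 0.16, for combination against control 0.19 and 0.33, and for the average of both trametinib effects, described further on, 0.15 and 0.25. The 95% intervals of single genes reached from -0.72 for Hras to 0.57 for Map2k2, and so do not show that levels were equal.

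Cediranib against control asks the same of VEGFR inhibition. Again 0 of the 7 passed, where 0% of all genes did. In this comparison the quasi-likelihood test passed 0 of 12897 genes with 557 at an unadjusted p under 0.05, none of them a member. The likelihood ratio test passed 13 higher and 3 lower genes, and DESeq2 8 higher and 4 lower, with 0 of the 7 by either. Log2 fold changes ran from -0.22 for Mapk3 to 0.23 for Braf. Braf and Nras were higher in all cediranib treated than in all control tumors, 2 of 7 against 7.76% of all genes with groups apart. Without cediranib replicate 2 the value of Hras was 0.38 in place of 0.19, and that of Mapk3 was -0.41 in place of -0.22, with neither passing. Mapk3 was at -0.11 without cediranib replicate 1. With the epidermal score as a covariate Mapk3 was at -0.08 and Hras at -0.04.

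In combination treated tumors compared to control, 0 of the 7 genes passed the quasi-likelihood test, against 9.98% of all genes, and 0 passed the likelihood ratio test or DESeq2. Braf had an unadjusted p of 0.0157 and was the 1 gene under 0.05 with each of the 3 tools. Its log2 fold change was 0.41 (SE 0.15, 95% interval 0.09 to 0.74) with an FDR of 0.0955 (edgeR). Braf passed in 2 of 20 alternatives, with FDRs up to 0.559 in the others. It passed without trametinib replicate 3, which shares in the estimate of spread (FDR 0.0384). It also passed with library totals in place of TMM factors (0.54, FDR 0.0417). Library totals raised the median of all genes in this comparison by 0.13, so the value relative to that median was nearly the same. Log2 fold changes were 0.24 (SE 0.12) for Araf and -0.34 (SE 0.20) for Hras, and with the epidermal score in the fit they were 0.08 and -0.74, with neither passing. The groups were apart for Araf, Braf and Mapk3, 3 of 7, against 31.3% of all genes.

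Adding cediranib to trametinib gave 0 passing genes of the 7 with all 3 tools, against 0.969% of all genes by the quasi-likelihood test. This share rests on single libraries, since 0 genes passed without combination replicate 2 and 3 without trametinib replicate 2. Of all genes, the likelihood ratio test passed 425 higher and 209 lower, and DESeq2 446 and 271. Log2 fold changes were 0.42 for Braf (SE 0.15, FDR 0.169) and 0.26 for Araf (SE 0.12, FDR 0.263), and both had an unadjusted p under 0.05. Without trametinib replicate 3, the tumor with the least Braf, the value of Braf was 0.27 (FDR 0.338). By the likelihood ratio test 1 gene and by DESeq2 2 genes were under that limit. Araf and Braf were higher and Mapk3 lower without overlap, 3 of 7, where 24.2% of all genes had groups apart. All tested epidermis markers were without overlap here too, 13 of 13 higher after the combination. When the epidermal score was fitted as a covariate, the value of Mapk3 turned from -0.17 to 0.32, and that of Araf was 0.02 in place of 0.26, and neither passed. The score ran from -3.61 to -3.03 after trametinib and from 2.93 to 3.42 after the combination. The fit can thus hardly tell score from treatment here, and 0 of all genes passed in it. These comparisons with control and with trametinib share tumors, and are not independent of each other.

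Adding trametinib to cediranib also gave 0 passing genes of the 7 with all 3 tools, against 7.68% of all genes by the quasi-likelihood test. Log2 fold changes were -0.54 for Hras (SE 0.20, FDR 0.127) and -0.33 for Nras (SE 0.13, FDR 0.145), and these 2 had an unadjusted p under 0.05 with each tool. Hras passed when cediranib replicate 2 was left out, at -0.72 (FDR 0.0496, edgeR), and was at -0.33 without cediranib replicate 1 (FDR 0.374). Nras was at -0.19 without combination replicate 3 (FDR 0.384). Braf and Map2k2 were higher and Nras lower without overlap, 3 of 7 against 28.4% of all genes.

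Between the single agents, 0 of the 7 genes passed by either test of edgeR, against 8.65% of all genes, and 1 passed by DESeq2. This was Nras, at -0.38 in trametinib relative to cediranib treated tumors (FDR 0.0367 by DESeq2 and 0.0906 by the quasi-likelihood test of edgeR). Hras was at -0.48 (SE 0.20, FDR 0.156) and Map2k2 at 0.35 (SE 0.13, FDR 0.124), and these 3 genes had an unadjusted p under 0.05 with each tool. The value of Hras depended on the cediranib treated tumors, since it passed at -0.66 without replicate 2 (FDR 0.0485, edgeR) and was at -0.27 without replicate 1 (FDR 0.491). It was at -0.04 once the epidermal score was fitted (FDR 0.970). Nras passed without combination replicate 3 (FDR 0.0418), and Map2k2 was at 0.22 without trametinib replicate 3. Nras was lower and Map2k2 higher without overlap, 2 of 7 against 28.3% of all genes.

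The treatments also give 6 tumors with trametinib and 6 without, and the average of both trametinib effects uses all 12. By this measure the log2 fold change of Hras was -0.41 (SE 0.14, 95% interval -0.72 to -0.11), and its FDR was 0.0657 by the quasi-likelihood test of edgeR. Nras had -0.27 (SE 0.09, FDR 0.0586) and Map2k2 0.25 (SE 0.09, FDR 0.0880). In this contrast 0 of the 7 genes passed by either test of edgeR, where 16.7% of all genes passed by the quasi-likelihood test. DESeq2 passed 2, Hras (-0.41, FDR 0.0274) and Nras (-0.27, FDR 0.0237). Hras, Nras and Map2k2 were under an unadjusted p of 0.05 with each tool. In fits of edgeR, Hras passed without cediranib replicate 2 (-0.50, FDR 0.0200) and was at -0.31 without cediranib replicate 1 (FDR 0.153). Nras passed without combination replicate 1 (-0.33, FDR 0.0364) and was at -0.21 without combination replicate 3 (FDR 0.0885). With all libraries Hras also passed with no filter on low counts (FDR 0.00427), with a replicate block (FDR 0.0251) and with the epidermal score as a covariate (-0.39, FDR 0.0461). The fit with no filter also passed 231 higher and 258 lower genes for cediranib against control, where the main fit passed 0. None of the 7 had the 6 treated tumors apart from the other 6, against 7.99% of all genes. Endothelial markers, 113 to 172 CPM and 80.7 to 142 CPM in the groups with trametinib against 158 CPM or more in those without, moved with this contrast, and their part in it was not tested.

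No interaction between the drugs was detected for the 7 genes. The quasi-likelihood test passed 0 of them and 0% of all genes, with 909 genes and 0 of the 7 at an unadjusted p under 0.05. DESeq2 passed 30 higher and 7 lower genes and the likelihood ratio test 23 and 5, with 0 of the 7 by either. The interaction of Hras was -0.25 with a 95% interval from -0.86 to 0.36, and values of either sign lie within it. A test for any difference among the 4 groups passed 0 of the 7, against 11.9% of all genes, with Braf (FDR 0.153) and Nras (FDR 0.165) at an unadjusted p under 0.05. In this test the likelihood ratio of edgeR had 0 and DESeq2 3 genes at an unadjusted p under 0.05, and 0 passed by either.

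**Figure D3:**
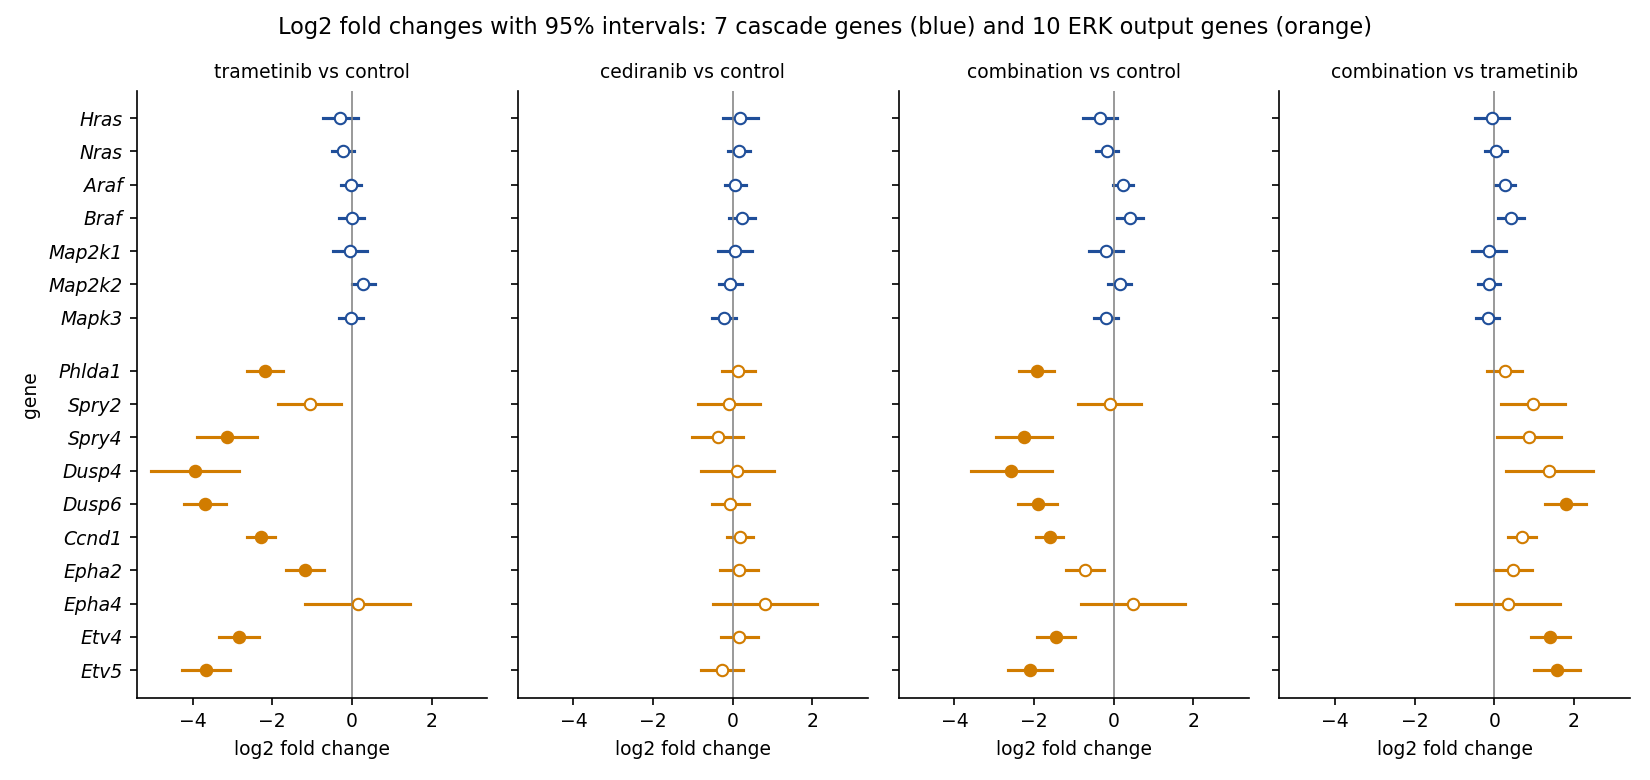
Log2 fold changes (points) with 95% intervals (lines) of the 7 cascade genes and 10 ERK output genes in 4 comparisons that share tumors, with filled points for an FDR under 0.05 (edgeR). All points of the 7 cascade genes are open and lie between -0.34 and 0.42, while 8 ERK output genes are filled on the left for trametinib against control.

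The ERK output genes are a list of 10 transcripts that ERK induces, and no test compared them with the cascade genes. In trametinib treated tumors compared to control, 8 of the 10 fell and 0 rose (edgeR, FDR under 0.05), against 6.12% of all genes passing. Spry2 (FDR 0.119) and Epha4 (FDR 0.924) did not pass, and 0 of the 7 cascade genes passed in this comparison. Dusp6, a phosphatase of ERK, went from 44.4 ± 4.70 to 3.37 ± 1.30 CPM (SD, n = 3), and Etv5, a transcription factor, had a log2 fold change of -3.67. Ccnd1, which encodes cyclin D1, was at -2.29 and Etv4 at -2.84. The calls of all 8 held under every alternative run for this comparison. After cediranib 0 of the 10 passed by either test of edgeR or by DESeq2, and 0 had an unadjusted p under 0.05. By the quasi-likelihood test 0% of all genes passed in that comparison. The combination lowered 7 of the 10 against control, where 9.98% of all genes passed, and Dusp6 was at 11.8 ± 1.91 CPM (SD, n = 3). Dusp6, Etv4 and Etv5 were higher in combination than in trametinib treated tumors, 3 of the 10 against 0.969% of all genes. Their log2 fold changes were 1.79, 1.40 and 1.58, with FDRs of 0.0196 to 0.0269. These 3 calls were lost once the epidermal score was a covariate, at 1.74, 0.83 and 2.17. Score and treatment can hardly be told apart in this comparison, and 0 of all genes passed in that fit. The 3 calls were also lost when single libraries were left out, Dusp6 without trametinib replicate 3 or combination replicate 2. Etv4 lost its call without any 1 of the 6 tumors compared, and Etv5 without any of them but trametinib replicate 1.

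Of 5 RAS-related GTPases outside the 7, 1 passed in the average trametinib effect, against 16.7% of all genes. This was Rap1a at 0.36 (FDR 0.0359), and its call was lost in 9 of the 12 fits that left out 1 library.

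Transcripts for proteins that load and unload RAS included some that passed. Of 12 tested activators and adaptors, 2 rose and 1 fell in the average trametinib effect, in which 16.7% of all genes passed. Frs2, an adaptor of FGF receptors, went from 20.9 ± 4.09 CPM in control to 51.3 ± 6.38 CPM in trametinib treated tumors (SD, n = 3), with an average log2 fold change of 1.07. Gab1, a docking protein of receptor kinases, had 1.14, and Rasgrp3, an exchange factor, -0.88 with an FDR of 0.0457, a call lost in 8 of the 12 fits without 1 library, with library totals (FDR 0.0559) and with a replicate block (FDR 0.0832). Of 8 tested GTPase activating proteins, which return RAS to its inactive form, 3 fell and 0 rose, against 16.7% of all genes passing in either direction. Rasal2 was at -0.83, Rasa1 at -0.68 and Rasa2 at -0.72, each without overlap between the 6 tumors with and the 6 without trametinib, as for 7.99% of all genes. Rasa1 went from 299 ± 26.4 CPM in control to 194 ± 6.84 CPM in trametinib treated tumors (SD, n = 3). The calls of Frs2, Gab1, Rasal2, Rasa1 and Rasa2 in the average effect held under every alternative run.

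Of 14 tested genes for scaffolds and other regulators of RAF, MEK and ERK, 1 rose and 3 fell in the average effect, against 16.7% of all genes passing. Ksr1, a scaffold of RAF and MEK, rose by 1.09 on average, from 24.0 ± 4.76 CPM in controls to 39.3 ± 3.88 CPM after trametinib and 57.8 ± 6.77 CPM after the combination (SD, n = 3). Its relative Ksr2 was at 1.93 to 4.26 CPM in controls and at no more than 0.116 and 0.202 CPM in trametinib and combination treated tumors, which is below 3 counts. Cdc37, a cochaperone for kinases, fell by 0.49 and Ywhaz, which encodes a 14-3-3 protein, by 0.39. The call of Ywhaz was lost with library totals (FDR 0.0637). None of the 8 genes for RAS lipid processing passed in the average effect by either test of edgeR or by DESeq2, and 1 had an unadjusted p under 0.05. Their log2 fold changes ran from -0.50 to 0.19.

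Of 14 genes of parallel MAP kinase cascades, 3 fell and 1 rose in the average effect, against 16.7% of all genes passing. Map2k3 and Map2k6, the kinases upstream of p38, had -1.19 and -1.71. Map2k3 went from 162 ± 20.4 CPM in control to 64.8 ± 4.16 CPM after trametinib and 67.5 ± 5.17 CPM after the combination (SD, n = 3), and Map2k6 from 27.5 ± 7.54 to 7.34 ± 2.03 and 10.3 ± 1.91 CPM. Mapk12, a p38 kinase, was at -1.06 (FDR 0.0414) and Mapk7, which encodes ERK5, at 0.35 (FDR 0.0408), and each of these 2 calls was lost in 9 of the 12 fits that left out 1 library. That of Mapk12 was also lost with a replicate block (FDR 0.0729) and that of Mapk7 with no filter (FDR 0.0959). The MEK genes of the core cascade had an average of -0.15 (Map2k1, 95% interval -0.45 to 0.15) and 0.25 (Map2k2, 0.05 to 0.45).

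**Figure D4:**
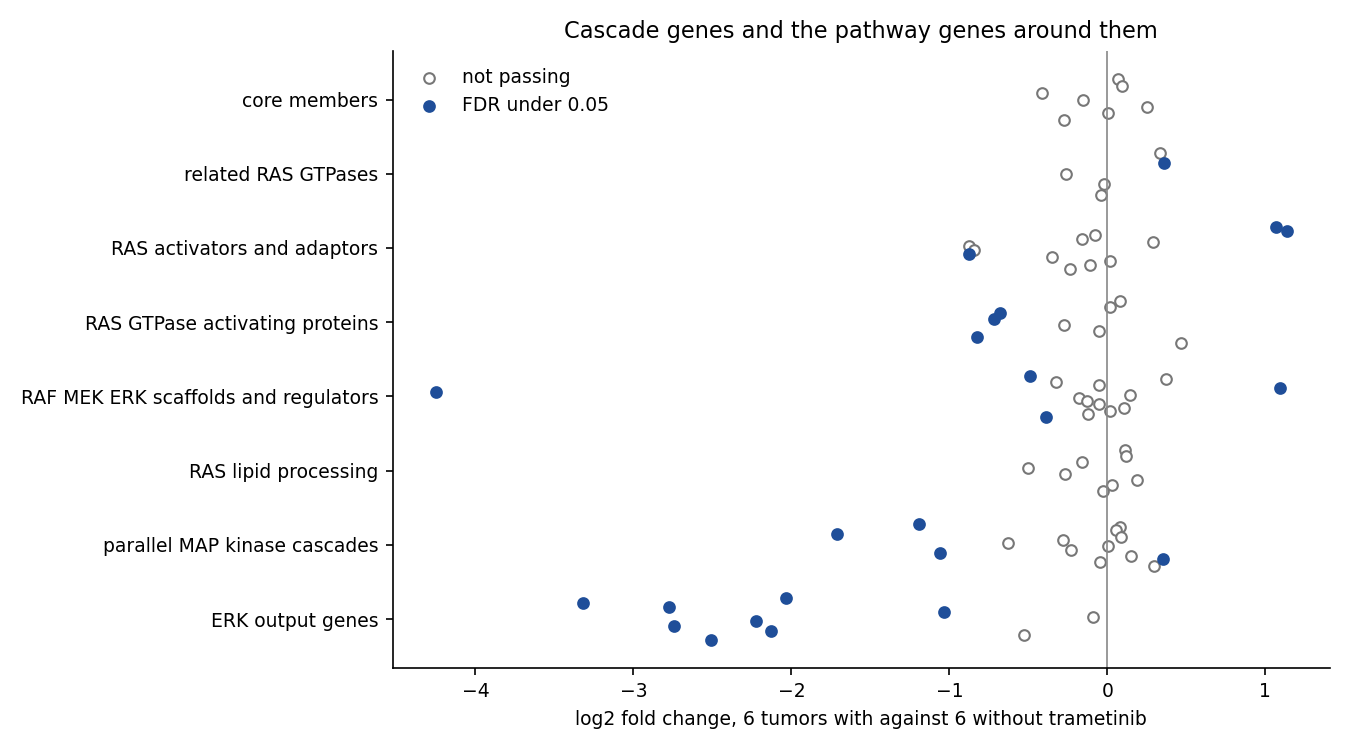
Average log2 fold change of trametinib (6 tumors with against 6 without) for each tested gene of 8 lists, with filled points for an FDR under 0.05 (edgeR). The 7 core genes are all open and lie between -0.41 and 0.25, 8 of 10 ERK output genes are filled between -3.32 and -1.03, and the farthest left point, Ksr2, rests on fewer than 3 counts per tumor in the treated groups.

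The genes with the most similar pattern over the 12 tumors were found by the root mean square difference of centred log2 CPM, a description with no test. Araf was closest to Slf2 (0.04) and Map2k2 to Gm49325 (0.05) and Ppp5c (0.06). Nras was closest to Dhx15 (0.08) and Mettl16 (0.09), Braf to Aak1 (0.09), and Mapk3 to Atp6v0b (0.09). Map2k1 was closest to Rrbp1 (0.10), and Hras, the most variable of the 7, to Fam129b (0.13). None of these neighbours was another member of the cascade.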

How the data were processed

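RNA of 12 SVR xenograft tumors was analysed, 3 per treatment, assigned from titles and treatment labels. Per the submitters' processing notes, bcl2fastq 1.8.4, STAR 2.7.1a and featureCounts 1.6.0 were used, with GRCm38. The authors deposited unnormalized counts per gene. Annotation release, strand setting and multi-mapping are not stated in the sources used here. Counts were filtered with filterByExpr (minimum count 10, total 15), TMM-scaled and entered, all 12 libraries together, into a quasi-likelihood fit (edgeR 4.0.16, R 4.3.3). A gene passed at an FDR of 0.05 (Benjamini-Hochberg, 12897 genes). The study's threshold also asks for an absolute log2 fold change of 1.5, which none of the 7 genes reached. Standard errors were the absolute log2 fold change over the square root of F, and scripts were tested on simulated data. Log2 CPM used a prior count of 2. Alternatives were other scalings, no filter, edgeR's likelihood ratio test, DESeq2 1.42.0, pairwise fits, a replicate block, an epidermal score and leaving out each library. Exon lengths are those of the table. Transcript sequences and overlaps came from GENCODE M21, on the same build.

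The 7 genes and the lists were chosen with earlier results of these data known. All 7 were to be reported in every comparison, with up to 4 passing genes of the smallest FDR per pathway list and the closest patterns. Some genes of that rule are not reported here. Ranges of 3 counts cover counting error only.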

Additional observations from a re-analysis of the deposited data

How the results depend on the processing

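Counts of passing members, 0 in every comparison, were 1 or 2 under some alternatives. With library totals it was 1 for combination against control, and with no filter it was 1 for combination against cediranib, trametinib against cediranib, the average trametinib effect and the test of any difference. DESeq2 gave 1 for trametinib against cediranib and 2 for the average effect, to which the replicate block (Hras, -0.40, FDR 0.0251) and the epidermal score each gave 1. Leaving out 1 library gave 0 to 1 for combination against control, both trametinib comparisons with cediranib treated tumors and the average effect. Replicate numbers do not pair the tumors (correlation of deviations from -0.22 to 0.36 over 18 pairs with the same number), and the block changed no other call of a member. The causes were not tested.

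Signs turned with the epidermal score for Araf (0.0592) and Braf (0.0240) in trametinib against control, for Hras (-0.0367), Araf (-0.0110) and Map2k2 (0.00283) in cediranib against control, and for Map2k1 (0.0291) and Mapk3 (0.13) in combination against control. They turned for Map2k1 (0.19), Map2k2 (0.0593) and Mapk3 (0.32) in combination against trametinib, and for Araf (0.0702) and Mapk3 (-0.12) in trametinib against cediranib. Library totals turned Hras (0.0637) and Map2k1 (0.000311) in combination against trametinib. Without 1 library, ranges that crossed 0 for trametinib against control were -0.0772 to 0.0351 (Araf), -0.15 to 0.15 (Braf), -0.18 to 0.11 (Map2k1) and -0.0940 to 0.0240 (Mapk3). For cediranib against control they were -0.0120 to 0.38 (Hras), -0.0507 to 0.23 (Map2k1) and -0.14 to 0.00307 (Map2k2). For combination against trametinib they were -0.21 to 0.0541 (Hras), -0.0447 to 0.19 (Nras) and -0.23 to 0.00865 (Map2k2). Others were -0.0877 to 0.21 (Mapk3, combination against cediranib), -0.26 to 0.0200 (Map2k1, trametinib against cediranib) and -0.0558 to 0.0929 (Mapk3, average effect).

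Counts over all genes also moved. With no filter 231 rose and 258 fell for cediranib against control, in place of 0. For combination against trametinib 125 passed, with 832 higher and 579 lower without a filter and 0 with the epidermal score. Without 1 library this count ran from 0 (combination replicate 2) to 223 higher and 66 lower (cediranib replicate 2). Library totals changed the split for combination against control from 626 higher and 661 lower to 866 and 442. The number of tumors, 3 per group, limits the precision of every value.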
